A study of Homo sapiens with 12 samples.

Results

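Untreated SUM159 cells that carry a hairpin against E4F1 (shE4F1) were compared with untreated SUM159 cells that carry a control hairpin (shCTRL). SUM159 is an established triple-negative breast cancer line, grown with serum, insulin and hydrocortisone in every group. The comparison rests on 6 of the 12 libraries of the series, 3 shE4F1 and 3 shCTRL, and the remaining 6 hold the same hairpins under 140 nM gemcitabine for 24 h. Polyadenylated RNA was sequenced from libraries of a stranded kit. The labels do not say how many hairpins or clones were used for shE4F1, or whether the 3 libraries of each were independent cultures. The p-values therefore describe the spread among 3 libraries a side, and that spread could be technical. All 21567 genes of the authors' deposited table for this pair of groups were taken, and the rule for choosing them used no measured value.

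E4F1 is a zinc finger transcription factor and ubiquitin ligase. It is known to act on p53, to bind promoters of genes for the checkpoint kinase CHEK1 and for pyruvate dehydrogenase, and to be needed for division and survival of dividing cells. SUM159 cells are known as a basal, mesenchymal-like line. In the authors' deposited table the mean normalized count was 66531 for the mesenchymal filament gene VIM and 11116 for CD44. The epithelial cadherin CDH1 was near 0 at 5.34 and the oestrogen receptor gene ESR1 at 9.21 in the same units of the authors' table. These 4 genes were chosen after their values were seen. Low counts did not hold for all luminal epithelial markers. Of 9 tested, 6 had a mean normalized count of at least 50 and 4 of at least 1000.

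Every fold change below is a log2 change of shE4F1 over shCTRL from the authors' deposited table, written with its standard error (SE) after ±. A gene is said to have risen or fallen where it had an adjusted p under 0.05 from the authors' DESeq2 fit over all genes. A positive change means a higher level in shE4F1 cells. The mean normalized count is the authors' average over the libraries they compared. It is not scaled to gene length, so levels of different genes cannot be ranked by it. Values per library are not analysed here, so whether the libraries of the groups overlap for a gene cannot be said.

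E4F1 itself was at 0.503 times the shCTRL level in shE4F1 cells, a log2 change of -0.99 ± 0.26 (adjusted p = 0.000778 as given by the authors' deposited table). CHEK1, named after its values were seen, was at -0.32 ± 0.16 in that deposited table of the authors and did not pass (adjusted p = 0.108).

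Of 19472 genes with an adjusted p, 36.7% were called, 17.5% higher and 19.3% lower in shE4F1 cells. The counts of every gene group below are to be read against these shares. For groups made up mostly of abundant genes, the larger shares of abundant genes given in this paragraph are the closer measure. The median log2 change over the tested genes was -0.01. Changes were mostly moderate: 180 genes rose by at least 2 (log2), 120 fell by at least 2, and the median size of a called change was 0.81. More was called where genes were abundant, with 49.2% of the 6453 genes that had a mean normalized count of at least 1000, 22.2% higher and 27.0% lower. Among genes with a mean between 50 and 200, 23.4% rose and 18.9% fell, and among those between 200 and 1000, 21.1% rose and 30.5% fell. Changes of low genes are bounded, since no gene with a mean under 10 went beyond 2.57 (log2) while the most changed gene reached 5.01.

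**Figure D1:**
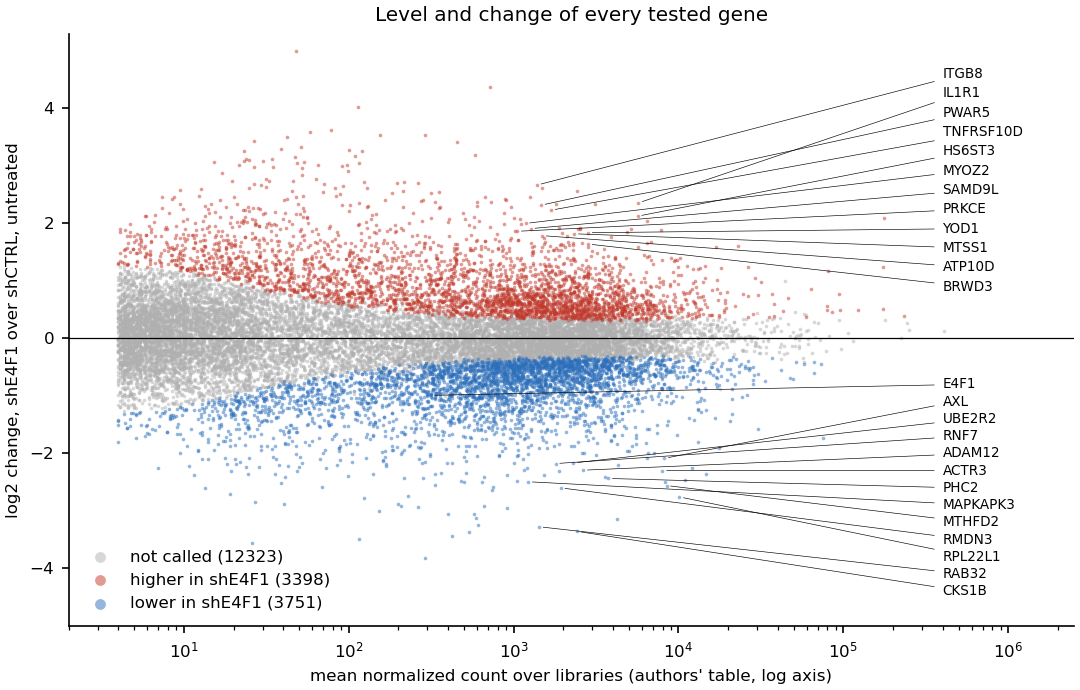
Log2 change of shE4F1 over shCTRL in untreated cells (vertical axis) against the authors' mean normalized count (horizontal log axis) for the 19472 tested genes. Red points are the 3398 genes called higher, blue points the 3751 called lower, and E4F1 and the 12 abundant genes with the largest Wald score each way are named.

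By kind of gene, 20.8% of the 13751 protein-coding genes rose and 23.6% fell. Of 1513 lincRNA genes 12.6% rose and 11.3% fell, and of 902 processed pseudogenes 2.55% rose and 2.66% fell. Across chromosomes the share called higher ran between 12.5% on chromosome 19 and 21.7% on chromosome 4, and the share called lower between 15.3% on chromosome 21 and 22.8% on chromosome 17.

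Among abundant genes, those with a mean of at least 1000, the 12 with the lowest Wald score (the change divided by its SE) were taken first. CKS1B, a subunit that cyclin-dependent kinases and the SKP2 ubiquitin ligase use, was at 0.0977 times shCTRL, a log2 value of -3.35 ± 0.16 in the authors' deposited table. RNF7, a RING subunit of cullin ligases, fell by 2.18 ± 0.14, and UBE2R2, a conjugating enzyme that works with cullin ligases, fell by 2.16 ± 0.14 in the authors' deposited table. ACTR3, a subunit of the Arp2/3 complex that branches actin filaments, fell by 2.30 ± 0.15, and RMDN3, a tether between mitochondria and endoplasmic reticulum, by 2.60 ± 0.17 in the authors' deposited table. MAPKAPK3, a kinase downstream of p38, fell by 2.49 ± 0.17, and RPL22L1, a paralog of a ribosomal protein, by 2.76 ± 0.17 in the authors' deposited table. PHC2, AXL, ADAM12, MTHFD2 and RAB32, the other abundant genes in this set of 12, are given with their families.

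On the other side stood the 12 abundant genes with the highest Wald scores. HS6ST3, a heparan sulfate sulfotransferase, rose by 2.13 ± 0.14, and IL1R1, the signalling receptor of interleukin 1, rose by 2.36 ± 0.16 in the authors' deposited table. PWAR5, a noncoding RNA of the Prader-Willi region on chromosome 15, rose by 2.32 ± 0.16, and SNHG14, the long transcript of the same region, by 1.42 ± 0.13 in the authors' deposited table. MYOZ2, a calcineurin-binding sarcomere protein, stood at 2.00 ± 0.14, the deubiquitinase YOD1 at 1.84 ± 0.13 and the membrane-bending protein MTSS1 at 1.82 ± 0.14, all higher, in the authors' deposited table. The same was seen for PRKCE, protein kinase C epsilon, at 1.86 ± 0.15, the flippase ATP10D at 1.79 ± 0.14 and the bromodomain gene BRWD3 at 1.64 ± 0.13 in the authors' deposited table. SAMD9L, TNFRSF10D and ITGB8 complete the set and come with their families.

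Many division genes beyond replication fell in shE4F1 cells, among them those of the structures that hold and move chromosomes. Of 32 tested genes of the centromere and kinetochore, the protein machine that ties chromosomes to the spindle, 26 fell and none rose, with a median of -0.83. CENPH and OIP5, which belong to the inner centromere machinery, fell by 2.38 ± 0.18 and 2.16 ± 0.19 in the authors' deposited table. SKA1, of the complex that holds on to microtubule ends, fell by 1.58 ± 0.18, and SPC24, of the NDC80 complex, by 1.45 ± 0.19 in the authors' deposited table. Of these genes 14 fell by at least 1.

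Mitotic kinesins, the motors of the spindle, fell in 11 of 14 cases with none higher (median -0.80). KIF15 was at -1.05 ± 0.18, KIF18A at -1.04 ± 0.19, CENPE at -1.03 ± 0.20 and KIF2C at -0.97 ± 0.17 in the authors' deposited table. Cohesin and condensin genes, which hold sister chromatids together and compact them, fell in 13 of 25 cases. NCAPH of condensin I was at -1.43 ± 0.18, CDCA5 (sororin) at -1.12 ± 0.14 and the cohesion protector SGO1 at -1.05 ± 0.19, while the cohesin subunit STAG1 rose by 0.53 ± 0.14 in the authors' deposited table.

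In both lists of cycle regulators that follow, more genes fell than rose. The share that rose was 14.3% in each, against 17.5% over all genes. Of 21 cyclin, kinase and CKS genes 10 fell and 3 rose: besides CKS1B, the inhibitory kinase PKMYT1 fell by 1.71 ± 0.27, CDK2 by 1.47 ± 0.18 and CCNB2 by 0.96 ± 0.15 in the authors' deposited table. Cyclin D1 (CCND1) rose by 0.54 ± 0.12 in the authors' deposited table. In the list of E2F, RB and DREAM regulators, which switch cell cycle genes on and off, 10 of 21 fell and 3 rose. MYBL2 fell by 1.61 ± 0.15, the MuvB subunit LIN9 by 1.54 ± 0.18 and the E2F partner TFDP1 by 0.99 ± 0.17, while RB1 rose by 0.41 ± 0.15 in the authors' deposited table. All 3 rises of that list were lost at an adjusted p under 0.01.

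Of 6 CDK inhibitors 2 rose and 1 fell. CDKN1B (p27), which SKP2 and CKS1B mark for destruction as a protein, rose at the RNA level by 1.65 ± 0.14 in the authors' deposited table, which is 3.13 times the shCTRL level. CDKN1A (p21), named here after its values were seen, was at -0.21 ± 0.17 and did not pass in the authors' deposited table (adjusted p = 0.364).

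**Figure D2:**
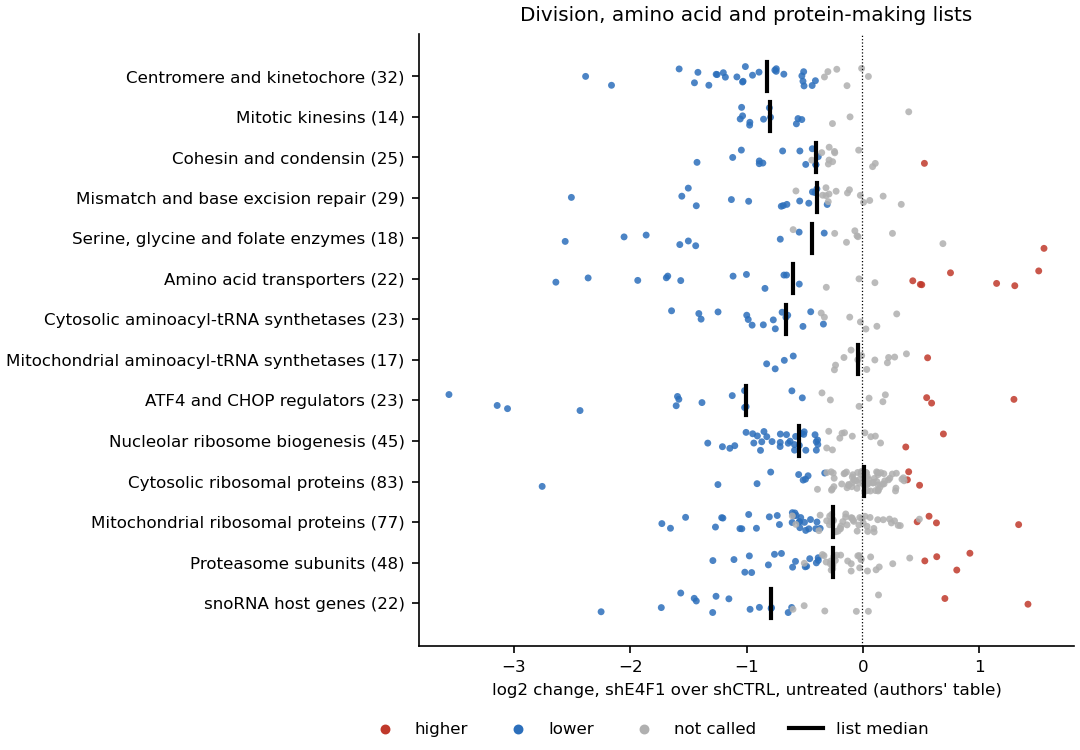
Log2 change of shE4F1 over shCTRL for every tested member (points) of 14 lists, with the number of members in brackets and the list median as a black bar. The dotted line is the median of all tested genes; in the centromere and kinetochore list 26 of 32 points are called lower, and in the cytosolic ribosomal protein list 9 of 83.

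Promoter sequence of these division genes was looked up because many mitotic genes are known to carry the cell cycle homology region (CHR), a short element bound by the DREAM and MYBL2 complexes. RefSeq promoter windows (GRCh38.p14), 250 bases before to 50 after a start, were at hand for 12142 of the tested genes, and a gene was counted where at least 1 of its windows held TTCAAA or TTTGAA on either strand. The element was found in 9 of 14 kinesin genes and in 11 of 26 kinetochore genes with a window, against 14.5% of all genes with a window. Over all called genes it was not more frequent among those that fell. It stood in 15.1% of genes that fell and 16.7% of genes that rose, and among changes of at least 1 in 14.1% of genes that fell and 21.1% of genes that rose. Genes that rose by at least 1 had more windows to search, 1.56 per gene against 1.40 for genes that fell by at least 1. No promoter share given here or below was adjusted for the number of windows. The sequences below show the match in capitals, within the promoters of KIF15 (chr3:44761748-44761775, plus strand), KIF23 (chr15:69414283-69414310, plus strand), SKA1 (chr18:50375069-50375095, plus strand) and NUF2 (chr1:163321959-163321986, plus strand).
KIF15: caagcgccaaaTTCAAAtttgcggccat
KIF23: tgattggcccgTTTGAAatgcgccaggc
SKA1: gcggcgggcggTTTGAAttttgcttac
NUF2: gaggcggcaagTTTGAAaagtgatgacg
A match is a description of these letters and not evidence of binding. The E2F words TTTCCCGC, TTTGGCGC, TTTCGCGC and TTCCCGCC stood in the windows of 11.7% of genes that fell, 8.23% of genes that rose and 9.61% of all. TGACGT, a word within known E4F1 and ATF sites, stood in 16.7% of genes that fell, 12.1% of genes that rose and 13.6% of all. CCAAT stood in 43.6%, 43.3% and 43.1%, and the AP-1 word TGAGTCA in 4.51%, 6.11% and 5.22%, in the same order.

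Repair lists outside recombination differed in their share of falls. Base excision and mismatch repair, which mend single damaged or mispaired bases, had 15 of 29 genes lower and none higher, with a median of -0.40. XRCC1, the scaffold of single-strand break repair, fell by 2.51 ± 0.17, the glycosylase MUTYH by 1.56 ± 0.20, the ligase LIG1 by 1.50 ± 0.20 and the exonuclease EXO1 by 1.43 ± 0.18 in the authors' deposited table. When changes were centred on the median, or adjusted over protein-coding genes or over genes with a mean of at least 50, 1 gene of this list passed as higher. Nucleotide excision repair, which cuts out bulky lesions, had 5 of 21 lower (23.8%) and 1 higher, near the 19.3% lower over all genes. DDB2, its sensor of ultraviolet lesions, fell by 1.69 ± 0.21, and GTF2H3, of the TFIIH complex, by 1.35 ± 0.16 in the authors' deposited table. Of 19 translesion synthesis genes 7 fell and 3 rose. RAD18, the ligase that marks the sliding clamp, fell by 1.70 ± 0.18 and USP1, which removes that mark, by 1.34 ± 0.15, while the polymerase subunit REV3L rose by 0.73 ± 0.14 in the authors' deposited table.

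Of 20 genes for the supply of deoxynucleotides 11 fell and 1 rose. DCTD fell by 1.45 ± 0.14, TK1 by 1.22 ± 0.20 and TYMS by 1.14 ± 0.22, and SAMHD1, which breaks deoxynucleotide triphosphates down, rose by 1.31 ± 0.17 in the authors' deposited table. Among 21 genes of purine and pyrimidine synthesis 10 fell and 2 rose, with PFAS, a step of purine synthesis, at -1.85 ± 0.15 and IMPDH1, of guanine nucleotide synthesis, at 1.08 ± 0.16 in the authors' deposited table. Histone chaperones fell in 8 of 17 cases with none higher, including CHAF1B at -1.02 ± 0.20 and CHAF1A at -0.99 ± 0.16 in the authors' deposited table.

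Chromatin writers and erasers showed no common direction. Of 28 Polycomb genes 7 rose and 8 fell: PHC2 fell by 2.43 ± 0.15, while PCGF3 rose by 1.37 ± 0.14 and CBX8 by 1.10 ± 0.18 in the authors' deposited table. Of 18 histone deacetylases and sirtuins 4 rose and none fell, HDAC1 by 0.89 ± 0.18 and HDAC5 by 0.69 ± 0.17 in the authors' deposited table. Of 451 zinc finger (ZNF) genes 96 rose and 68 fell, which is 21.3% higher and 15.1% lower.

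Many genes of amino acid making, import and tRNA loading fell in shE4F1 cells, and some of these are textbook targets of ATF4, the transcription factor of amino acid shortage. ATF4 RNA itself fell, by 1.02 ± 0.14 in the authors' deposited table. Of 23 ATF4 and CHOP regulators 14 fell and 3 rose (median -1.0). The pseudokinase TRIB3 fell by 3.14 ± 0.25, the glutathione-degrading enzyme CHAC1 by 3.05 ± 0.42, ATF3 by 2.43 ± 0.43 and the phosphatase subunit PPP1R15A by 1.6 ± 0.41, while the kinase EIF2AK4 (GCN2), which senses uncharged tRNA, rose by 0.59 ± 0.14 in the authors' deposited table.

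Of 18 serine, glycine and folate genes 9 fell and 1 rose. MTHFD2, the mitochondrial folate enzyme, fell by 2.56 ± 0.17, PSPH, the last step of serine synthesis, fell by 2.05 ± 0.15, and PSAT1, the step before it, by 1.5 ± 0.20 in the authors' deposited table. The 1 rise, in ALDH1L1, was named after its values were seen and was lost where a mean of at least 50 was required. In the list for asparagine, proline, glutamine and transsulfuration 7 of 17 fell and 2 rose. CTH, which makes cysteine, was at -2.94 ± 0.24, the asparagine synthetase ASNS at -2.49 ± 0.21, the alanine transaminase GPT2 at -2.38 ± 0.18 and PYCR1, of proline synthesis, at -2.03 ± 0.21 in the authors' deposited table. Glutamine synthetase (GLUL) and argininosuccinate synthase (ASS1) rose, by 1.20 ± 0.17 and 0.79 ± 0.16 in the authors' deposited table.

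Amino acid transporters went both ways. SLC7A5 and SLC3A2, the pair of chains that imports leucine and other large neutral amino acids, fell by 2.36 ± 0.20 and 1.68 ± 0.20, and SLC1A4, a carrier of alanine, serine and cysteine, by 2.64 ± 0.22 in the authors' deposited table. The glutamate carriers SLC1A1 and SLC1A3 rose by 1.51 ± 0.25 and 1.30 ± 0.15 in the authors' deposited table. Over the list 12 of 22 fell and 7 rose, shares of 54.5% lower and 31.8% higher.

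Cytosolic aminoacyl-tRNA synthetases, which load tRNAs with amino acids, fell in 16 of 23 cases with none higher (median -0.66). MARS fell by 1.64 ± 0.19, GARS by 1.41 ± 0.18, AARS by 1.39 ± 0.16 and TARS by 1.25 ± 0.17 in the authors' deposited table. Their mitochondrial counterparts had fewer calls: 4 of 17 fell and 1 rose, with a median of -0.04, and the difference between the lists was not tested. NARS2 was at -0.83 ± 0.14 and LARS2 at 0.55 ± 0.16 in the authors' deposited table.

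The element that CHOP and ATF4 are known to bind (CARE) was searched as TGATGCAA or TGATGAAA on either strand of the RefSeq windows. It stood in 6 of 17 cytosolic synthetase genes with a window, all 6 of them lower in shE4F1 cells, against 1.70% of all genes with a window. Of 5 amino acid transporter genes with the element, 4 fell and 1 rose. Of 5 such genes among the ATF4 and CHOP regulators 3 fell and none rose. Of 3 such genes in the asparagine, proline, glutamine and transsulfuration list 1 fell and none rose. The element stood in 2.11% of all genes that fell and in 1.58% of those that rose. Among changes of at least 1 it stood in 3.52% of genes that fell and 1.43% of genes that rose. The windows of AARS (chr16:70289675-70289704, minus strand), TARS (chr5:33440956-33440985, plus strand), IARS (chr9:92293692-92293721, minus strand), ASNS (chr7:97872458-97872487, minus strand), SLC1A4 (chr2:64989381-64989410, plus strand) and CHAC1 (chr15:40953251-40953280, plus strand) are shown with the match in capitals, read along the gene.
AARS: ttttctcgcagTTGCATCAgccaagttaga
TARS: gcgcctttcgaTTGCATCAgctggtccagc
IARS: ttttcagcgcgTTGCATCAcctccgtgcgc
ASNS: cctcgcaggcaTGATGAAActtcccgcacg
SLC1A4: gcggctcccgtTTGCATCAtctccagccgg
CHAC1: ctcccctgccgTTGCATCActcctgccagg

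Other stress systems had calls in both directions. Of 27 endoplasmic reticulum chaperone and degradation genes 11 fell and 3 rose, with the transcription factor XBP1 at -1.96 ± 0.19, its activating enzyme ERN1 at -1.5 ± 0.23 and the disulfide isomerase P4HB at -1.28 ± 0.14 in the authors' deposited table. Of 28 heat shock genes 7 rose and 8 fell: mitochondrial HSPA9 and HSPD1 fell by 1.44 ± 0.16 and 0.80 ± 0.16, and inducible HSPA1A and HSPA1B rose by 1.66 ± 0.34 and 1.56 ± 0.49 in the authors' deposited table. HSPA1A and HSPA1B are near-identical copies, so the division of reads between them is uncertain. Of 30 NRF2 and glutathione genes 6 fell and 2 rose, with the glutathione synthetase GSS at -1.27 ± 0.13 in the authors' deposited table. Of 14 metallothionein and zinc transport genes 5 rose and 5 fell. MT1E and MT1X rose by 1.74 ± 0.25 and 1.51 ± 0.24 in the authors' deposited table, and this family too has near copies.

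Ribosome assembly genes fell in shE4F1 cells. Of 45 nucleolar genes, which process ribosomal RNA, 32 fell and 2 rose (median -0.55). RRP12, an export factor of both subunits, was at -1.33 ± 0.17, BOP1 at -1.21 ± 0.21, the methyltransferase NOP2 at -1.14 ± 0.16 and UTP15 at -1.10 ± 0.17 in the authors' deposited table. Of them 5 fell by at least 1. Of 83 cytosolic ribosomal protein genes 9 fell and 3 rose with a median of 0.01, and RPS3A fell by 1.25 ± 0.16 in the authors' deposited table. These genes have many pseudogene copies that can share reads.

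Of 77 mitochondrial ribosomal protein genes 29 fell and 4 rose (median -0.26). MRPS10 fell by 1.73 ± 0.15, MRPS18A by 1.65 ± 0.16 and MRPS17 by 1.52 ± 0.17 in the authors' deposited table. Noncoding host genes of small nucleolar RNAs fell in 14 of 22 cases (median -0.79), with SNHG1 at -2.25 ± 0.24, SNHG17 at -1.73 ± 0.26, SNHG8 at -1.57 ± 0.21 and SNHG12 at -1.45 ± 0.25 in the authors' deposited table. Besides SNHG14, SNHG18 rose, by 0.70 ± 0.22 in the authors' deposited table.

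Protein breakdown genes moved both ways. Of 48 proteasome subunit and assembly genes 16 fell and 4 rose: the base subunits PSMC2 and PSMD1 fell by 1.29 ± 0.15 and 1.11 ± 0.15, and the interferon-inducible catalytic subunits PSMB9 and PSMB10 rose by 0.92 ± 0.16 and 0.81 ± 0.19 in the authors' deposited table. Lysosomal genes leaned the other way, with 17 of 45 higher and 7 lower. Protective protein CTSA rose by 1.08 ± 0.17 and the proton pump subunit ATP6V0E1 by 0.99 ± 0.15, while TFEB, a transcription factor of lysosome genes, fell by 1.06 ± 0.20 in the authors' deposited table. Autophagy genes, at 5 higher and 5 lower of 36, stood below the shares over all genes in both directions.

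In central metabolism the pyruvate dehydrogenase group, in which E4F1 targets are known, had 6 of 18 genes lower and 2 higher. LIAS, which makes lipoic acid, fell by 0.91 ± 0.17 and the catalytic subunit PDHA1 by 0.77 ± 0.13 in the authors' deposited table. Of 43 mitochondrial SLC25 carriers 16 fell and 7 rose, with the aspartate and glutamate carrier SLC25A13 at -1.56 ± 0.14 in the authors' deposited table. Of 22 glucose and lactate transport genes 6 fell and 5 rose (median -0.07). Among them the lactate carrier SLC16A1 (MCT1) was at -1.99 ± 0.14 and its chaperone BSG at -1.83 ± 0.18 in the authors' deposited table.

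Fatty acid oxidation held the regulators PPARGC1A and PPARA among its rises, at 2.41 ± 0.23 and 1.53 ± 0.15 in the authors' deposited table, and over the list 8 of 25 rose and 4 fell, or 32.0% and 16.0%, with a median of -0.01. Of 17 polyamine genes 7 fell and 3 rose. The arginase ARG2 fell by 1.67 ± 0.24 and the acetyltransferase SAT1 by 1.19 ± 0.19, and the polyamine transporter gene ATP13A3 rose by 1.10 ± 0.16 in the authors' deposited table.

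Extracellular matrix and cell shape genes rose more often than they fell in shE4F1 cells. Of 34 fibronectin, matricellular and elastic fibre genes 17 rose and 3 fell (median 0.51). Fibronectin itself (FN1), whose mean normalized count was 175896, was at 4.29 times the shCTRL level and NOV (CCN3) rose by 2.17 ± 0.27, periostin (POSTN) by 1.87 ± 0.33 and the cross-linking enzyme LOX by 1.62 ± 0.22 in the authors' deposited table. LOXL3, of the same enzyme family, fell by 1.70 ± 0.23 in the authors' deposited table.

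Of 29 collagens 10 rose and 4 fell. COL5A1 rose by 1.40 ± 0.19 and COL6A1 by 1.23 ± 0.20, whereas COL21A1 fell by 3.01 ± 0.32 and COL1A1 by 1.51 ± 0.21 in the authors' deposited table. Enzymes that cut the matrix rose as well: 8 of 15 matrix metalloproteinase and TIMP genes, with none lower. Stromelysin (MMP3) was at 3.19 ± 0.19, MMP15 at 1.68 ± 0.29 and MMP11 at 1.23 ± 0.30 in the authors' deposited table. When adjusted over genes with a mean of at least 50 or over protein-coding genes, 1 gene of the list passed as lower.

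ADAM and ADAMTS proteases, which shed membrane proteins and cut proteoglycans, rose in 11 of 30 cases and fell in 3. The aggrecanase ADAMTS5 rose by 3.28 ± 0.32, ADAM19 by 2.19 ± 0.19 and ADAMTS1 by 1.99 ± 0.17, and ADAM12 fell by 2.29 ± 0.15 in the authors' deposited table. At an adjusted p under 0.01 the counts were 7 higher and 1 lower.

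The actin list had 19 of 32 genes higher and 4 lower (median 0.56), and the leading genes were those of contractile, smooth-muscle-like fibres. ACTA2 rose by 1.88 ± 0.18, the myosin light chain MYL9 by 1.67 ± 0.17, transgelin (TAGLN) by 1.58 ± 0.21 and the adhesion protein LPP by 1.23 ± 0.17 in the authors' deposited table. TPM3 and the zyxin partner TES fell by 1.26 ± 0.16 and 1.31 ± 0.31 in the authors' deposited table. RAC1, a small GTPase which drives lamellipodia, fell by 1.50 ± 0.16 in the authors' deposited table.

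**Figure D3:**
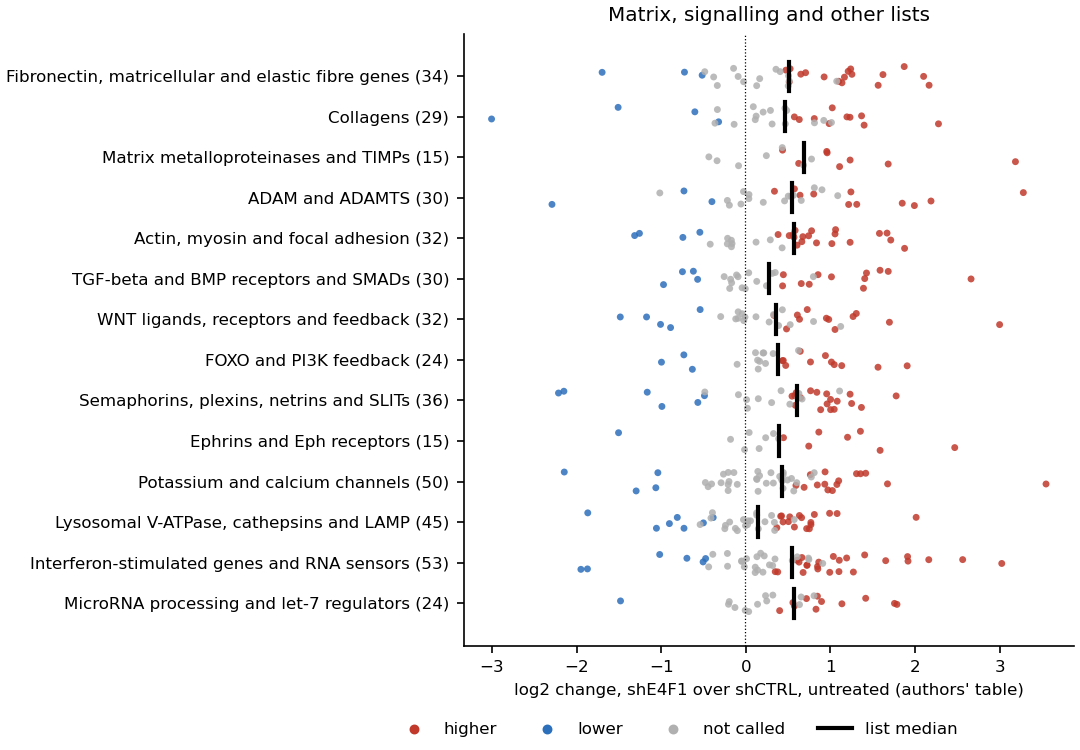
Log2 change of shE4F1 over shCTRL for every tested member (points) of 14 further lists, with the number of members in brackets and the list median as a black bar. Medians lie between 0.15 for the lysosomal list and 0.68 for matrix metalloproteinases and TIMPs, to the right of the dotted line at the median of all tested genes. These 14 lists were picked out of 96, so the side on which their medians lie is not a result. Integrins, with a median of 0.005, and the Notch pathway, with a median of -0.16, are not drawn.

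Adhesion receptors and junction genes split. ITGB8, the integrin chain known to release active TGF-beta, rose by 2.67 ± 0.21 and the collagen receptor chain ITGA11 by 2.07 ± 0.27, while ITGB3 fell by 1.10 ± 0.19 in the authors' deposited table, and over 25 integrins 5 rose and 4 fell. Of 25 keratin, desmosome and tight junction genes 8 fell and 5 rose (median 0.01). The tight junction gene CLDN1 was at -3.24 ± 0.47, plakophilin PKP3 at -1.39 ± 0.18 and the keratin KRT7 at -1.05 ± 0.14, while CLDN12 rose by 0.54 ± 0.13, in the authors' deposited table. Transcription factors of epithelial to mesenchymal transition rose in 6 of 13 cases and fell in 2. TCF4 rose by 1.26 ± 0.20, and SNAI2 and ZEB2 both by 1.00 ± 0.16, and KLF4, an epithelial factor, fell by 1.23 ± 0.23 in the authors' deposited table.

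In the TGF-beta and BMP family, whose ligands bind paired receptor kinases that act on SMAD proteins, 12 of 30 receptor and SMAD genes rose and 4 fell. TGFBR2 rose by 1.59 ± 0.13, TGFBR3 by 1.43 ± 0.17, BMPR2 by 1.40 ± 0.14 and the inhibitory SMAD6 by 1.68 ± 0.22 in the authors' deposited table. The activin receptor ACVR1 fell by 0.97 ± 0.15 in the authors' deposited table. Among 19 ligand genes 6 rose and 4 fell, with the BMP antagonist NOG at 1.49 ± 0.18 and GDF15, an ATF4 target as well, at -3.06 ± 0.49 in the authors' deposited table.

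Of 32 WNT pathway genes 12 rose and 5 fell. The feedback inhibitor NKD1 rose by 3.00 ± 0.31 and the receptors FZD4 and FZD3 by 1.70 ± 0.20 and 1.27 ± 0.14, and the ligands WNT10B and WNT3 fell by 1.48 ± 0.26 and 1.17 ± 0.17 in the authors' deposited table. Of 31 YAP and TEAD targets 15 rose and 7 fell. LATS2, the kinase that restrains YAP, rose by 1.62 ± 0.14, NT5E by 1.06 ± 0.16 and CTGF by 0.93 ± 0.20, but CRIM1 was at -2.47 ± 0.19 and the receptor kinase AXL at -2.08 ± 0.14 in the authors' deposited table.

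Of the EGF family 6 of 18 genes rose and 4 fell. The ligands AREG and HBEGF fell by 2.42 ± 0.50 and 1.43 ± 0.21, the ligand NRG4 rose by 2.04 ± 0.23, and the receptors ERBB4 and EGFR rose by 1.28 ± 0.17 and 0.74 ± 0.18 in the authors' deposited table. KDR (VEGFR2) rose by 2.34 ± 0.20, IGF1R by 1.63 ± 0.14 and PDGFRA by 1.09 ± 0.19 in the authors' deposited table, within a list in which 16 of 41 rose and 11 fell. Of 29 output and feedback genes of ERK 8 rose and 9 fell, with ETV5 at -1.82 ± 0.18, DUSP5 at -1.48 ± 0.25 and DUSP4 at 1.29 ± 0.15 in the authors' deposited table.

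Among FOXO targets and PI3K feedback genes, which are known to rise when insulin signalling is low, 11 of 24 rose and 3 fell. SESN3 rose by 1.91 ± 0.24, the PI3K regulatory subunit PIK3R3 by 1.56 ± 0.22 and FOXO1 by 1.04 ± 0.15, and AKT2 fell by 0.73 ± 0.16 in the authors' deposited table. MTOR, named after its values were seen, rose by 0.54 ± 0.13 in the authors' deposited table. Of 36 guidance cues and receptors, known from growing axons, 18 rose and 6 fell: NEO1 rose by 1.78 ± 0.20 and PLXNA2 by 1.08 ± 0.19, while SEMA3B was at -2.21 ± 0.29 and ROBO3 at -2.15 ± 0.31 in the authors' deposited table. Eph receptors and ephrins rose in 7 of 15 cases and fell in 1, with EPHB2 at 1.35 ± 0.18 and EPHA4 at 1.20 ± 0.15 in the authors' deposited table.

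Of the nuclear receptors, the vitamin D receptor VDR rose by 1.20 ± 0.15 in the authors' deposited table, in a list of 30 with 8 higher and 4 lower. Of the HOX genes 7 of 19 rose, and HOXA10, the 1 that fell, was at -2.09 ± 0.20 in the authors' deposited table. Of 14 MYC network genes 4 rose and 1 fell. FBXW7, the ligase that destroys MYC protein, rose by 1.13 ± 0.16, and MYC RNA, named after its values were seen, was at -0.19 ± 0.14 without a call in the authors' deposited table (adjusted p = 0.322).

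Of 53 genes listed as interferon-stimulated or as RNA sensors 24 rose and 6 fell (median 0.55). IFITM10, listed with its gene family but not known as interferon-induced, was at 3.02 ± 0.32 in the authors' deposited table. GBP1 was at 2.56 ± 0.21, IFI44L at 1.92 ± 0.22 and SAMD9L at 1.91 ± 0.15, against IRF5 at -1.95 ± 0.29 and IRF7 at -1.87 ± 0.31, in the authors' deposited table. Of 26 MHC class I genes 12 rose and 8 fell, with HLA-B at 0.95 ± 0.17 and the stress ligand ULBP1 at -1.58 ± 0.23 in the authors' deposited table. Of 42 interleukin and receptor genes 14 fell and 9 rose. The cytokine TSLP fell by 2.77 ± 0.31, the IL-33 receptor IL1RL1 by 2.42 ± 0.23 and IL1A by 1.94 ± 0.30, and the receptor IL31RA rose by 2.38 ± 0.17 in the authors' deposited table. Of 13 chemokines 3 rose and 4 fell, and CCL20 and CCL5 were at -2.94 ± 0.23 and 2.37 ± 0.27 in the authors' deposited table. Of 24 NF-kB subunits and feedback genes 8 rose and 6 fell, with TNFAIP3 at 1.41 ± 0.17 and BIRC3 at 1.26 ± 0.21 in the authors' deposited table.

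Of 17 BCL2 family genes 3 rose and 7 fell. BMF, a BH3-only protein that opposes BCL2, rose by 2.62 ± 0.25 and BCL2L11 (BIM) by 1.02 ± 0.20, both known FOXO targets, while PMAIP1 (NOXA) fell by 1.56 ± 0.23 in the authors' deposited table. In the death receptor list 11 of 33 rose and 5 fell. The decoy receptor TNFRSF10D rose by 2.23 ± 0.18 and FAS by 1.27 ± 0.15, and CASP9 fell by 1.93 ± 0.20 in the authors' deposited table.

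At the membrane, 15 of 50 potassium and calcium channel genes rose and 4 fell, or 2 at an adjusted p under 0.01. KCNAB2 rose by 1.36 ± 0.19 in the authors' deposited table. Of 39 ABC transporter genes 12 rose and 10 fell. The drug exporters ABCC2 and ABCC5 rose by 1.91 ± 0.17 and 1.55 ± 0.15, and ABCC9, a regulatory subunit of potassium channels, fell by 2.11 ± 0.36 in the authors' deposited table. RAB GTPases, which route vesicles, fell in 13 of 51 cases and rose in 8, with RAB32 at -3.27 ± 0.17 and RAB21 at -1.27 ± 0.15 in the authors' deposited table.

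Of 24 genes that make, use or regulate microRNAs 11 rose and 1 fell (median 0.56). DICER1, which cuts precursors, rose by 1.76 ± 0.16, and TNRC6A, which carries out silencing, by 1.42 ± 0.13 in the authors' deposited table. XPO5, the exporter of precursors and of hairpins, fell by 1.48 ± 0.16 in the authors' deposited table. Of 16 oncofetal genes, several of them known let-7 targets, 6 rose and 3 fell. HMGA2 was at 20.8 times the shCTRL level and IGF2BP3 rose by 1.90 ± 0.35, but IGF2BP2, named after its values were seen, was without a call at -0.07 ± 0.18 in the authors' deposited table, with an adjusted p of 0.820.

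Called genes differed in their 3′ UTRs. In the principal GENCODE 29 transcripts of 11080 genes with a mean of at least 50, the median 3′ UTR was 994 bases for genes that fell by at least 1, 2166 bases for genes that rose by at least 1 and 1108.5 bases for genes without a call. The word AAGTGCT was picked in earlier work on these same data as frequent in genes that fell, so its shares are a description. It stood in 32.2% of genes that fell by at least 1, 20.8% of genes that rose by at least 1 and 18.4% of genes without a call. The word is also part of the Alu repeat, where ATTACA follows it. Without matches that have ATTACA in the next 10 bases, the shares were 26.2%, 16.1% and 13.5%.

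Since longer UTRs hold more words, genes were split into short, middle and long classes of equal size by 3′ UTR length, at 677 and 1971 bases. In the middle class the word stood in 36.9% of genes that fell by at least 1, 11.5% of genes that rose by at least 1 and 11.8% of genes without a call. In the long class the shares were 62.4%, 33.1% and 45.1%, and in the short class 8.04%, 0.690% and 2.07%. Whether the hairpin or any small RNA pairs with this word was not tested, and its sequence is not given in the sources used here. Matches from genes that fell are shown with the word in capitals, on GRCh38: RAB32 (chr6:146554911-146554937, plus strand), MAD2L2 (chr1:11674670-11674696, minus strand), AXL (chr19:41260265-41260291, plus strand) and CENPH (chr5:69210250-69210276, plus strand).
RAB32: cttttagtgtAAGTGCTggggtggtaa
MAD2L2: ccctgattccAAGTGCTcttatcgcct
AXL: aattctattaAAGTGCTaaggttctaa
CENPH: cggcctaccgAAGTGCTaggattacag
The CENPH match is the form with ATTACA close behind it, which the second set of shares leaves out. The searched 3′ UTRs of CKS1B, PHC2, ADAM12 and XRCC1, which also fell, did not hold the word. Without the genes that hold it, 2405 of 10695 genes with a searched 3′ UTR were lower in shE4F1 cells. Among them were 19 of 23 kinetochore genes, 14 of 21 cytosolic synthetases, 29 of 38 nucleolar genes and 9 of 14 amino acid transporters. Of the transporters, 3 of 14 were then higher, against 7 of 22 in the whole list. Other lists lost more of their falls. Translesion synthesis then had 3 of 13 lower, against 7 of 19 in the whole list. RAB GTPases had 7 of 32, against 13 of 51, and YAP and TEAD targets 3 of 19, against 7 of 31. A part of the word in these counts was not tested.

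The word CTACCTC, the match to the seed of let-7, was chosen after the values of HMGA2 were seen. It stood in 17.7% of genes that rose by at least 1, 8.23% of genes that fell by at least 1 and 9.58% of genes without a call. In the long class these shares were 27.7% and 17.3%, with 20.5% over all genes of that class, and in the middle class 9.77%, 8.31% and 7.45% in the first order. In the short class they were 1.38%, 2.25% and 2.68%, where genes that rose had the lowest of the 3 shares. With 1 match the median log2 change was 0.06 over 1024 genes, with 2 matches 0.14 over 103 genes, and without a match -0.07 over 9933 genes. These medians were not split by 3′ UTR length, and longer UTRs hold more matches, so number of matches and length cannot be told apart here. MicroRNA levels were not measured. The mature let-7a sequence of RefSeq (GRCh38.p14, chr9:94175962-94175983, plus strand) is printed with its seed, bases 2 to 8, in capitals, and below it are matches in genes that rose: HMGA2 (chr12:65963303-65963329, plus strand), ADAMTS5 (chr21:26923728-26923754, minus strand), IGF1R (chr15:98960051-98960077, plus strand) and ITGB8 (chr7:20411593-20411619, plus strand).
hsa-let-7a-5p: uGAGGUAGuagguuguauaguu
HMGA2: cgttcgatttCTACCTCagcagcagtt
ADAMTS5: cccttgtcacCTACCTCtgatagaatg
IGF1R: aaacatttatCTACCTCactcttattt
ITGB8: caatatcatgCTACCTCttgaatcttt
HMGA2 held 4 matches in its 3′ UTR, IGF1R 2, and ADAMTS5 and ITGB8 1 each.

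**Figure D4:**
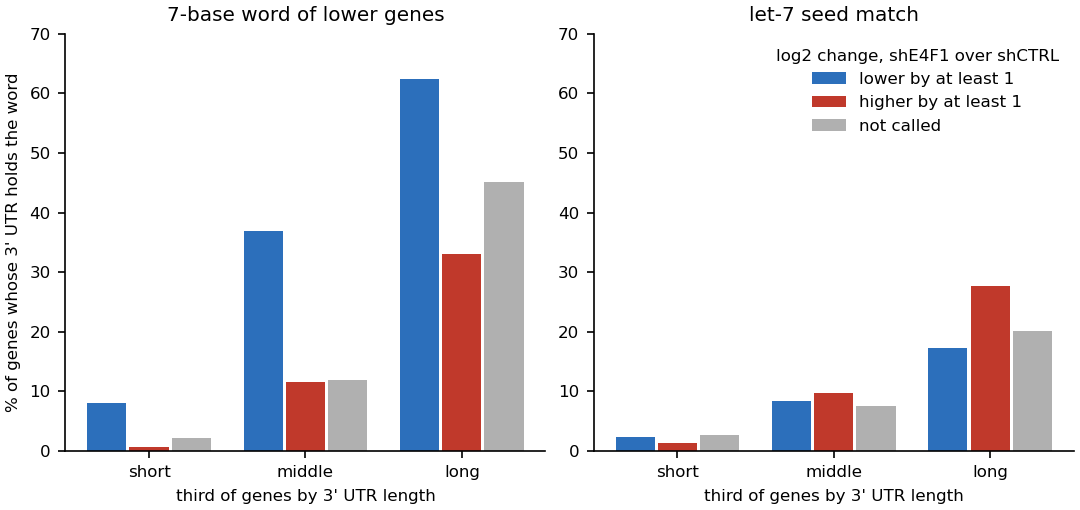
Share of genes whose 3′ UTR holds AAGTGCT (left) or the let-7 seed match CTACCTC (right), by class of 3′ UTR length, for genes lower by at least 1 (blue), higher by at least 1 (red) and not called (grey). In the middle class AAGTGCT stood in 36.9% of the lower genes against 11.8% of genes without a call.

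Of 290 LINC genes 37 rose and 52 fell, with LINC00707 at -2.50 ± 0.25 and LINC00941 at -1.24 ± 0.23 in the authors' deposited table. Of 498 named antisense RNAs 46 rose and 83 fell. The strand setting of the counting is not given in the sources used here, so reads of an antisense RNA and of its partner may not be told apart, and no single antisense RNA is given.

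Markers of other cell types were looked at over whole lists. Of 9 tested luminal epithelial markers 2 fell and none rose, of 11 basal and myoepithelial markers 5 rose and 1 fell, and of 17 mesenchymal and stem-like markers 9 rose and 3 fell. ALDH1A3 rose by 1.96 ± 0.27 and the basal factor TP63 by 0.61 ± 0.23, while GATA3 fell by 0.57 ± 0.19 and VIM by 0.40 ± 0.14 in the authors' deposited table. Leukocyte markers had 3 tested members, of which PTPRC fell, at a mean normalized count of 42.6. Of 6 endothelial markers 3 rose, KDR and PECAM1 among them, and of 6 neuronal and glial markers 3 rose. The part of other cells in these values was not tested, and in bulk RNA fewer cells of a type and less RNA per cell cannot be told apart.

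For E4F1 and for the leading gene of 25 lists the authors' other deposited table of shE4F1 against shCTRL, both under gemcitabine, was set beside the untreated values. These pairs of groups share no library. Of 20926 genes in both tables, 5.43% differed between the conditions at an adjusted p under 0.05 (two-sided normal test, summed variances, Benjamini-Hochberg adjustment). E4F1 was at -0.91 ± 0.16 under gemcitabine and -0.99 ± 0.26 untreated in the authors' deposited tables, a difference of 0.08 ± 0.31 (adjusted p = 0.951). XRCC1 was at -2.47 ± 0.13 under gemcitabine and -2.51 ± 0.17 untreated, and SESN3 at 1.90 ± 0.12 and 1.91 ± 0.24, in the authors' deposited tables. The leading genes were chosen for their size in untreated cells, which by itself favours smaller values in the other table.

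**Figure D5:**
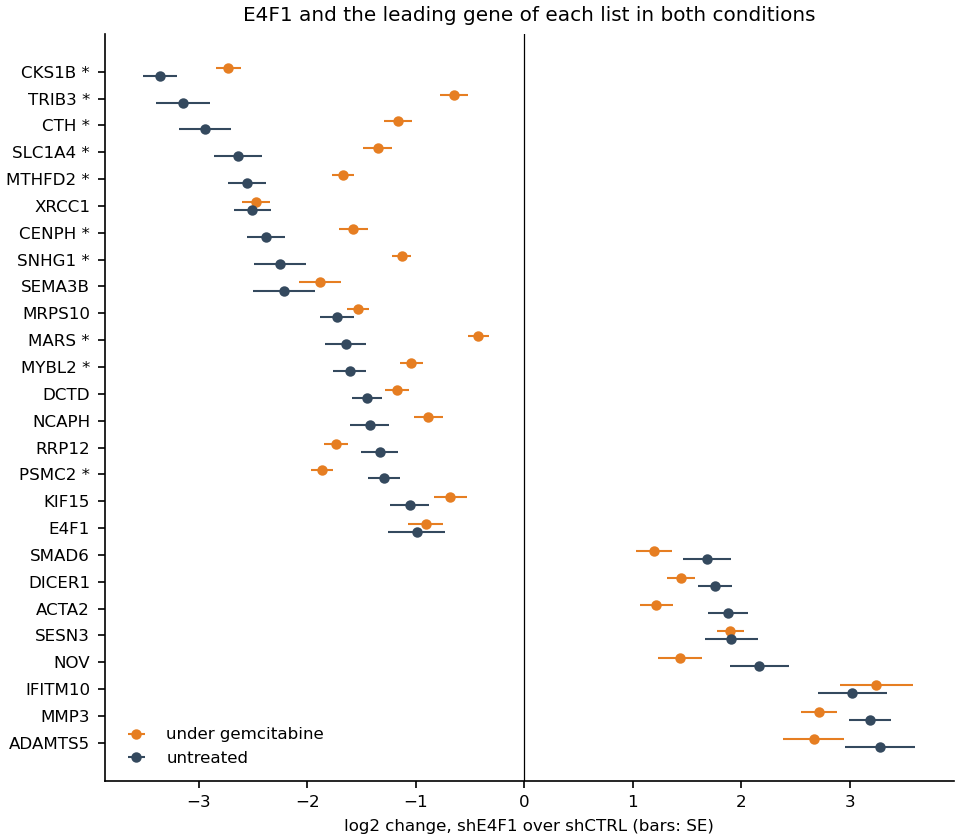
Log2 change of shE4F1 over shCTRL under gemcitabine (orange) and in untreated cells (dark), with SE bars, for E4F1 and the leading gene of each of 25 lists. A star marks the 10 genes whose effect differed between conditions at an adjusted p under 0.05; TRIB3 lies at -0.64 under gemcitabine and at -3.14 untreated.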

How the data were processed

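RNA of the 6 untreated libraries (3 shE4F1, 3 shCTRL) was compared through the authors' deposited table. Per the submitters' processing notes reads were handled with bcl2fastq and FastQC. The same notes name TopHat2 2.1.1, Bowtie2 2.2.9 and build GRCh38.p7, then HTSeq 0.9.0, and R 3.4.0 with the package DESeq2 1.14.1. For the annotation release, the strand setting and the design formula, the entry is not given in the sources used here. Per the file headers the authors' tables hold a mean normalized count and a Wald score (both handled as a score), a log2 fold change and SE, and p-values raw and adjusted (Benjamini-Hochberg) by the authors with DESeq2. Whether fold changes were moderated, which would understate those of low genes, is not stated. Missing adjusted p-values (2095 genes) stayed missing. The 12 columns of a deposited count table match no label and were not used, so the depth of a library is unknown. Over all genes with an SE, tested or not, its median was 0.242, and over tested genes it had medians of 0.146 to 0.527 by level.

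Symbols and IDs are those of the table, and 21439 of its 21567 IDs have a GENCODE 29 record, used for kind of gene, position and 3′ UTR (at least 50 bases, the longest among principal transcripts). Promoter windows were matched by Entrez ID, then symbol. Gene lists (96) and their members were chosen with earlier results of these data known. Members count where they have an adjusted p, and no list was tested. Named genes were, per list, up to 4 called genes of the commoner direction and 2 of the other with the largest change and a mean of at least 50, and 12 abundant genes (mean of at least 1000) each way by Wald score; others are said to be chosen after their values were seen, or are named for their defining role. The difference between the conditions was tested with a two-sided normal test. Alternatives were an adjusted p under 0.01, adjustment over every gene, over genes with a mean of at least 50 or over protein-coding genes, centring on the median, a change of at least 1, and leaving out genes whose 3′ UTR holds AAGTGCT, the last chosen after seeing the data. Python 3.11.15, numpy 2.4.6, pandas 2.3.3 and scipy 1.17.1 were used. Some genes that the rule names are not reported here.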

Additional observations from a re-analysis of the deposited data

Results flagged for a closer look

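The effect of shE4F1 differed between gemcitabine and untreated cells for 10 leading genes of the lists, at an adjusted p under 0.05 over all genes in both tables. For genes of the ATF4 and amino acid group the differences (log2, gemcitabine minus untreated) were 2.50 ± 0.28 for TRIB3 (adjusted p = 1.09e-15), 1.78 ± 0.27 for CTH (adjusted p = 3.21e-08), 1.29 ± 0.26 for SLC1A4 (adjusted p = 9.85e-05), 1.22 ± 0.21 for MARS (adjusted p = 3.03e-06) and 0.89 ± 0.20 for MTHFD2 (adjusted p = 0.000981). All 5 were lower in shE4F1 cells in both conditions, and less so under gemcitabine.

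Among division genes the difference was 0.81 ± 0.22 for CENPH (adjusted p = 0.00918), 0.63 ± 0.19 for CKS1B (adjusted p = 0.0272) and 0.57 ± 0.19 for MYBL2 (adjusted p = 0.0454). It was 1.12 ± 0.25 for the snoRNA host gene SNHG1 (adjusted p = 0.00076). PSMC2 of the proteasome went the other way, by -0.58 ± 0.18 (adjusted p = 0.0271), with a stronger fall under gemcitabine. Of these 10 genes, 9 moved towards 0, the direction that choosing them by their untreated size favours.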

How the results depend on the processing

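The main counts were 3398 genes higher and 3751 lower. With a change of at least 1 required they were 1363 and 1274, and without genes whose 3′ UTR holds AAGTGCT, or that have no searched 3′ UTR, 2251 and 2405, with fewer genes tested by construction. At an adjusted p under 0.01, with adjustment over every gene, over genes with a mean of at least 50 or over protein-coding genes, and with the log2 changes centred on the median, they stayed within 1.5 times, between 2554 and 3739 higher and between 2875 and 3710 lower. Centring gave 3739 higher and 3379 lower, which turns the larger side, for a shift of -0.05 (log2). E4F1 and the 26 leading genes kept direction and call in each alternative fixed at the start in which they were tested. The leading genes were picked as the called genes with the largest change of their lists, a choice that favours this outcome. Of the counts of the 26 lists whose settings were varied, 39 of 52 moved by over 1.5 times when a change of at least 1 was required, 5 at an adjusted p under 0.01, 4 with genes of a mean of at least 50, 4 with protein-coding genes, 1 with centring and 9 without AAGTGCT genes, a setting chosen after seeing the data. No paired analysis was possible because the columns of the count table match no label, and for the same reason the edgeR fit and leaving out single libraries were not run.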
